A study of Homo sapiens with 23 samples.

Results

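The expression of 43 genes, MYC and 42 genes whose products make ribosomes, was followed in HCT116 cells that carried a knockout of MLL4 or of BAP1. The genes were chosen by name, with earlier results of these data known. Their shares set beside those of all genes are therefore descriptions and no independent support. The same holds for the other gene lists below. Each gene had to be present in the expression tables of all 8 RNA libraries. Where a gene had several transcript rows, the row with the highest mean read count stood for it. All 43 were found among the 28105 genes of the tables, and all 43 passed the filter on low counts that left 16831 genes for testing. By role the list held MYC itself, 7 genes of RNA polymerase I transcription, 8 of the small nucleolar ribonucleoprotein particles, 10 of the small subunit processome, 12 of large subunit assembly and 5 nucleolar proteins with several functions.

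Ribosome biogenesis begins in the nucleolus, where RNA polymerase I copies the ribosomal DNA into a long precursor. Small nucleolar particles modify that precursor, the small subunit processome folds and cuts its 5′ part, and a separate set of factors assembles the large subunit. The transcription factor MYC binds many of these genes and is known as a driver of ribosome production in growing cells, and in colorectal cancer its own transcription lies downstream of WNT signalling.

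HCT116 is a human colorectal cancer cell line. The labels describe 23 samples, of which the 15 chromatin immunoprecipitation samples were not analysed here. The 8 RNA libraries fell into 4 groups of 2: WT cells, MLL4 KO cells, BAP1 KO cells, and cells named control that the labels also give a WT genotype. The tables of the control and BAP1 KO groups share the cell name osTir1F74G, which those of the WT and MLL4 KO groups do not have, so MLL4 KO was compared with WT and BAP1 KO with control. MLL4 (gene KMT2D) is a histone H3K4 methyltransferase of enhancers. BAP1 removes ubiquitin from histone H2A. How the knockouts were made, whether a library stands for a clone, and whether the 2 libraries of a group came from separate cultures are not given in the labels, so the p-values measure the spread between these libraries only. The treatment text attached to every sample describes a lentiviral, doxycycline-inducible T7-tagged BAP1, and whether the RNA libraries received it is not given. All cells grew in McCoy's 5A medium with serum, and libraries were made from poly(A)-selected RNA.

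Counts assigned to genes came to between 24.8 and 42.2 times 1e6 per library. The lowest count of any member in any library was 473 (GAR1 in BAP1 KO replicate 1), so counting error was small for every member. The annotation places 19 of the 43 in overlap with another gene and 11 in overlap with small RNA genes, and without a stated strand setting shared reads cannot be told apart. In bulk RNA, fewer cells that express a gene and less of its RNA per cell cannot be told apart either. Levels are given as CPM, counts per 1e6 of a library after TMM scaling, for replicate 1 and then replicate 2 of each group. The mRNA of the targeted genes did not separate the knockouts: KMT2D was at 309 and 371 CPM for WT, 279.6 and 406 for MLL4 KO, 239 and 259 for control and 267 and 228 for BAP1 KO. BAP1 was at 77.9 and 92.1 CPM for WT, 73.2 and 69.8 for MLL4 KO, 56.7 and 62.1 for control and 67.4 and 57.4 for BAP1 KO. An mRNA can persist after a knockout, and the deleted part is not given, so the levels are no check of the knockouts. MLL4 KO and BAP1 KO stand here for the libraries so labelled. Epithelial markers were present in every library, and the deposited RPKM (a read density scaled to transcript length and depth) of 8 markers was summed. The sum was 1703 to 1819 for WT, 2442 to 2454 for MLL4 KO, 2653 to 2698 for control and 1446 to 1689.7 for BAP1 KO. KRT8, KRT18 and KRT19 made up most of these sums, while VIL1 (1.41 to 2.11 RPKM) and CDX2 (2.44 to 4.30 RPKM), both of intestinal epithelium, were low. Of the 8, KRT18 and KRT8 rose and EPCAM fell in MLL4 KO (37.5% called). In BAP1 KO 6 fell (75%), and 5 were higher in control than in WT (62.5%). Of all genes 19.1%, 22.4% and 39.6% were called in these comparisons. Some of the marker calls in BAP1 KO and in control against WT were lost without a control library. EPCAM, an epithelial adhesion protein, was at 113 and 143 RPKM in WT, 56.5 and 60.4 in MLL4 KO, 191 and 205 in control and 63.3 and 99.5 in BAP1 KO. Its log2 change was -1.12 ± 0.21 (SE) in MLL4 KO (edgeR adjusted p = 0.0145) and -1.33 ± 0.21 in BAP1 KO (adjusted p = 0.00313). The EPCAM call in MLL4 KO was lost without WT replicate 2 or MLL4 KO replicate 2. It was also lost when only the 4 WT and MLL4 KO libraries were fitted, where 1 of the 8 markers was called higher and 0 lower. CDH1 was at 10.1 to 14.3 RPKM in WT and MLL4 KO, 36.3 and 37.7 in control and 4.59 and 11.3 in BAP1 KO, and CLDN4 was between 32.1 and 176 RPKM in the 8 libraries. The part of these marker levels in the members' changes was not tested. The sums of leukocyte markers (0.0502 to 0.338 RPKM) and endothelial markers (0.0784 to 0.227 RPKM) were near 0, and CD3E and DCN were listed at 0 in all 8 libraries; the fibroblast markers summed to 3.42 to 7.44 RPKM, nearly all from COL1A1.

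In both knockouts the members that passed the test were lower than in the matching unedited cells, and no member was called higher. In MLL4 KO against WT, 32 of 43 members fell and 11 did not pass (edgeR's quasi-likelihood test, Benjamini-Hochberg adjusted p under 0.05 over the 16831 genes). Over all genes tested, 19.1% were called in this comparison, 9.13% higher and 10.0% lower. All 43 members had a negative log2 change, against 49.7% of all genes. The median log2 change of the members was -0.66 (range -1.23 to -0.21), against 0.00 over all genes. In BAP1 KO against control, 21 members fell and the other 22 missed the threshold, where 22.4% of all genes were called, 12.1% higher and 10.4% lower. The median was -0.55 (range -1.36 to 0.16) against 0.01 over all genes, and 42 members had a negative change, against 48.7% of all genes. Both MLL4 KO libraries lay below both WT libraries for 40 of 43 members, a pattern seen in 30.3% of all genes. Both BAP1 KO libraries lay below both control libraries for 41 members, against 35.2% of all genes. The same knockout contrasts without MYC had medians of -0.67 and -0.54.

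**Figure D1:**
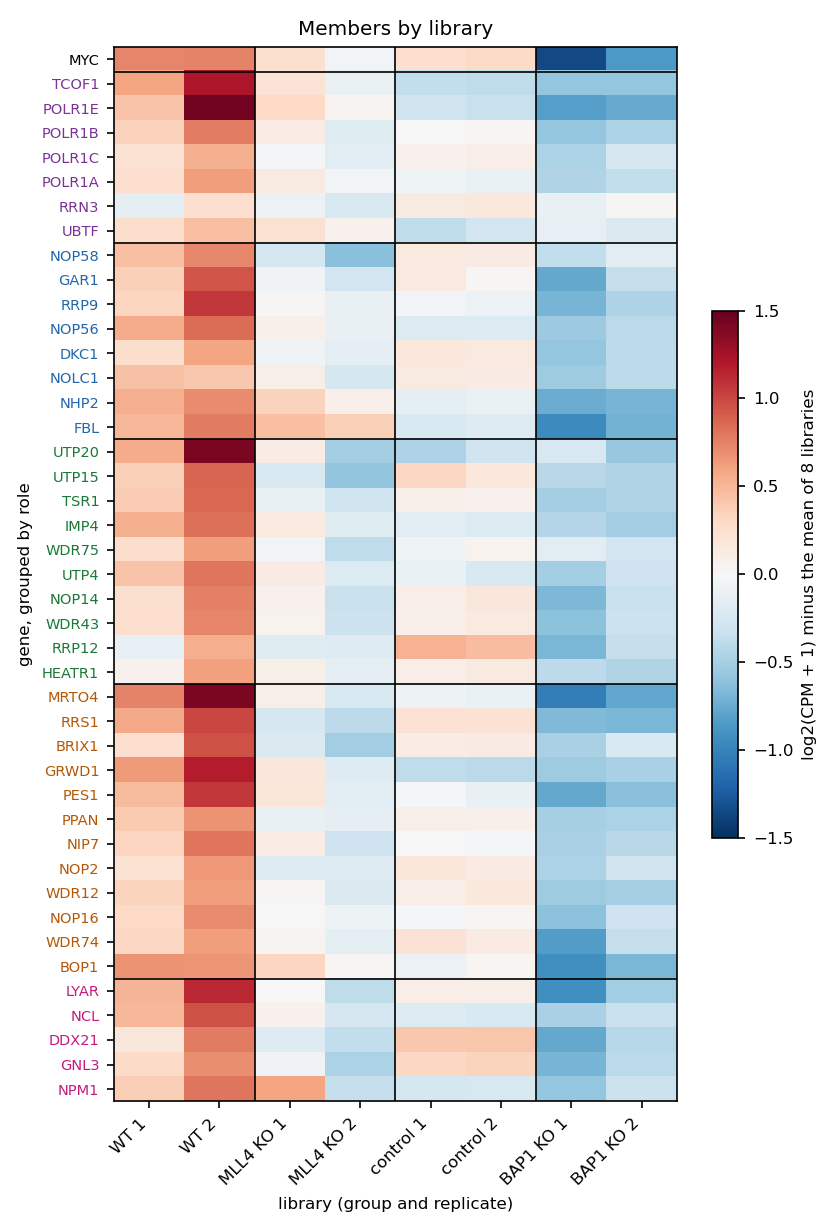
Heat map of the 43 members (rows, grouped and coloured by role) in the 8 libraries (columns); colour is log2(CPM + 1) minus the gene's mean over the 8 libraries, with CPM scaled by TMM. WT replicate 2 held the highest value of 41 members and BAP1 KO replicate 1 the lowest of 33. The shares of all genes with these patterns were not counted.

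The unedited groups also differed from each other. In control against WT, 28 members were lower, none was higher and 15 missed the threshold. The median of the 43 was -0.56 (range -1.45 to 0.25). This comparison called 39.6% of all genes, 19.9% higher and 19.7% lower. A negative change was found for 41 members, against 49.0% of all genes. Both control libraries lay below both WT libraries for 38 members, against 35.7% of all genes. The 10 most abundant genes took 9.44 to 10.71% of counts in the control libraries and 5.47 to 6.05% in WT, and the part of this in the members' differences was not tested. The control group enters this comparison and that of BAP1 KO, and the WT group enters this one and that of MLL4 KO, so the 3 are not independent.

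**Figure D2:**
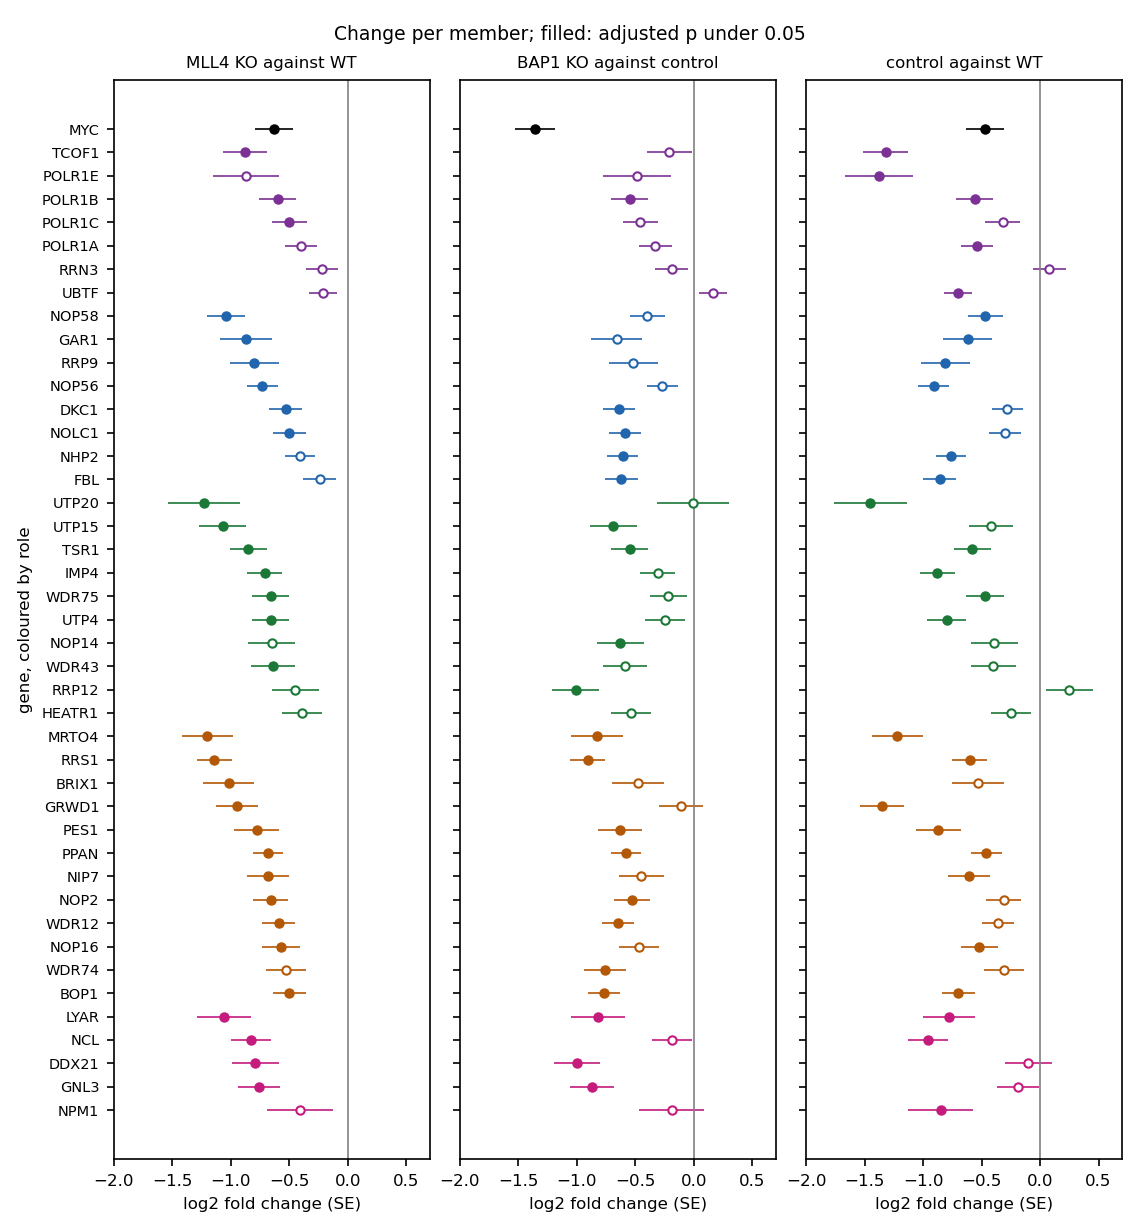
Log2 change of each member (rows, coloured by role) with its standard error (bars), in 1 panel per comparison (log2 axis); filled points passed adjusted p under 0.05. All points lie below 0 in MLL4 KO against WT, and all but UBTF in BAP1 KO against control.

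The members' summed level put the libraries in a wide range, although the scaling held the median gene level (-0.02 to 0.01 log2 around the mean of the 8 libraries). The summed CPM was 8917 and 11762 for WT, 7549.9 and 5784 for MLL4 KO, 6567 and 6592 for control, and 4481 and 5058 for BAP1 KO. WT replicate 2 stood apart: it was above WT replicate 1 for 41 of 43 members, by a median of 0.42 log2, where 51.9% of all genes were higher in that library. MLL4 KO replicate 2 was below replicate 1 for 42 members, with a median difference of -0.27 log2, where 50.2% of all genes were lower in it. The control libraries were nearly equal, with a median difference of -0.01. The median absolute log2 difference between the replicates of a group was larger over the members than over all genes in WT (0.424 against 0.233) and in MLL4 KO (0.271 against 0.179), and smaller in control (0.035 against 0.082). WT replicate 1 alone was above both MLL4 KO libraries for 40 members, and the share of all genes with this pattern was not counted.

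MYC, a basic helix-loop-helix transcription factor encoded on chromosome 8, was lower in both knockouts. Its level was 398 and 403 CPM for WT, 283 and 234 for MLL4 KO, 287 and 292 for control and 93.6 and 131 for BAP1 KO. The WT libraries were the highest pair, the MLL4 KO and control libraries lay between 234 and 292 CPM without overlap, and the BAP1 KO libraries were below all others. Group means were 400.4 ± 3.08 CPM for WT, 258 ± 34.4 for MLL4 KO, 289.6 ± 3.69 for control and 113 ± 26.7 for BAP1 KO (SD, n = 2 libraries each). In BAP1 KO it fell by 61.1%, a log2 change of -1.36 ± 0.17, adjusted p = 0.000749 (errors of log2 changes are standard errors throughout), the lowest log2 change of any member in that comparison. In MLL4 KO it fell by 35.5% (log2 -0.63 ± 0.16, adjusted p = 0.0308), and it was lower in control than in WT (-27.7%, log2 -0.47 ± 0.16, adjusted p = 0.0473).

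The fall of MYC in BAP1 KO passed in all 18 alternative analyses, with log2 changes from -1.63 to -1.14 and a highest adjusted p of 0.0116. The call in MLL4 KO was lost without WT replicate 2 (adjusted p = 0.107), MLL4 KO replicate 2 (0.173), control replicate 1 (0.074) or control replicate 2 (0.0677), and in a fit of the 4 WT and MLL4 KO libraries alone (0.0948). The call in control against WT was lost in 8 of 18 alternatives, among them those that left out a WT library (0.0807 for replicate 1, 0.113 for replicate 2) or a control library (0.207 for replicate 1, 0.185 for replicate 2). The test of the difference between the knockout effects gave 0.73 ± 0.23 for MYC, the smaller fall being that in MLL4 KO, and did not pass (adjusted p = 0.061). It passed in 4 of its 17 alternatives. These were DESeq2 (adjusted p = 0.0304), upper-quartile scaling (0.0392) and a replicate block with the MLL4 KO numbers exchanged (0.0421), a block chosen once the data had been seen. The other was the fit without BAP1 KO replicate 2, the only library whose removal brought it past the threshold, with a difference of 1.00. Over all its alternatives the difference ran from 0.51 to 1.00.

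**Figure D3:**
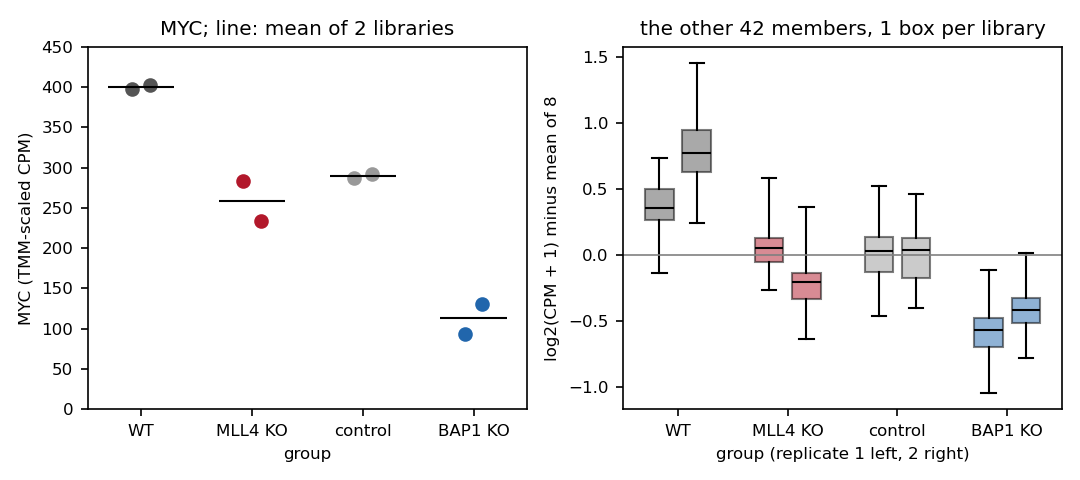
Left, MYC in CPM (library-size scaled counts, TMM, axis from 0) for the 2 libraries of each group (points) with their mean (line). Right, the other 42 members in each library as log2(CPM + 1) minus the mean of 8 libraries (box, quartiles and median; whiskers, lowest and highest member); MYC was nearly equal in the 2 WT libraries at 398 and 403 CPM, while the other members sat higher in WT replicate 2.

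Of 19 genes of the MYC network, its partners and antagonists, 18 were tested. In MLL4 KO 2 rose and 3 fell (27.8% called, against 19.1% of all genes, median -0.17), and in control against WT 4 were higher and 6 lower (55.6%, against 39.6% of all genes, median -0.10). MXI1, an antagonist that competes for MAX, rose from 37.7 and 35.6 CPM in WT to 52.3 and 66.4 in MLL4 KO (log2 0.69 ± 0.14, adjusted p = 0.0145). MNT, another MAX-binding repressor, rose by 0.76 ± 0.17 (adjusted p = 0.0212), and the MYC cofactors WDR5 and RUVBL1 fell, by 0.72 and 0.66 on the log2 scale. In BAP1 KO 1 gene rose and 1 fell (11.1% called, against 22.4% of all genes, median -0.16): TRRAP, a scaffold of histone acetyltransferases recruited by MYC, rose by 0.62 ± 0.14 (adjusted p = 0.0127), and the antagonist MXD1 fell from 21.2 and 21.2 CPM in control to 7.75 and 12.0 (log2 -1.11 ± 0.21, adjusted p = 0.00624). MXD1 was itself higher in control than in WT, where it was at 5.00 and 4.59 CPM (log2 2.14 ± 0.23, adjusted p = 0.000182), a call kept when any 1 library was left out. The calls against the matching unedited cells rested on single libraries. In MLL4 KO 1 network gene rose and 0 fell without MLL4 KO replicate 2 or WT replicate 2, and 2 rose and 0 fell without either control library. In BAP1 KO the calls of TRRAP and MXD1 were lost, and 0 network genes passed, without BAP1 KO replicate 1 or either control library.

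Among the 7 genes of RNA polymerase I transcription, 3 fell in MLL4 KO (42.9%, median of the 7, -0.50) and 1 fell in BAP1 KO (14.3%, median -0.33). In control against WT 5 were lower (71.4%, median -0.56). Of all genes 19.1%, 22.4% and 39.6% were called in these comparisons, and 10.0%, 10.4% and 19.7% were called lower. POLR1B, which encodes a catalytic subunit of the polymerase, fell in both knockouts. It was at 95.8 and 129 CPM for WT, 81.3 and 66.5 for MLL4 KO, 75.1 and 77.1 for control and 50.0 and 54.2 for BAP1 KO. Neither knockout overlapped with its unedited cells. The changes were -0.60 ± 0.16, adjusted p = 0.0322 in MLL4 KO, -0.55 ± 0.16, adjusted p = 0.0381 in BAP1 KO and -0.56 ± 0.16, adjusted p = 0.0208 in control against WT. TCOF1, which encodes treacle, a nucleolar scaffold of ribosomal DNA transcription, was at 218 and 334 CPM for WT, 166 and 134 for MLL4 KO, 111 and 110.1 for control and 95.5 and 96.0 for BAP1 KO. It fell in MLL4 KO by 0.88 ± 0.19, adjusted p = 0.0187, was lower in control than in WT by 1.32 ± 0.19, adjusted p = 0.000864, and differed in BAP1 KO by -0.21 ± 0.19, adjusted p = 0.475, without passing. WT replicate 2 lay well above WT replicate 1 for TCOF1, and all 4 control and BAP1 KO libraries lay below every WT and MLL4 KO library.

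POLR1A encodes the largest subunit and was at 176 and 229 CPM for WT, 163 and 144 for MLL4 KO, 141 and 138 for control and 108 and 114 for BAP1 KO. POLR1E, which encodes the polymerase-associated factor PAF53, was at 61.0 and 125 CPM for WT, 55.6 and 46.1 for MLL4 KO, 36.2 and 35.5 for control and 25.0 and 26.2 for BAP1 KO. For both, the knockout libraries lay below those of the matching unedited cells, and only control against WT passed (-0.54 ± 0.14, adjusted p = 0.0154 and -1.38 ± 0.29, adjusted p = 0.00677). POLR1C, a subunit shared with RNA polymerase III, fell in MLL4 KO (-0.50 ± 0.15, adjusted p = 0.0449) and had -0.46 ± 0.15, adjusted p = 0.0556 in BAP1 KO. A pair of factors bring the polymerase to its promoter. UBTF, which binds along the ribosomal DNA, was at 174 and 198 CPM for WT, 170.3 and 152 for MLL4 KO, 111 and 118 for control and 133 and 124 for BAP1 KO. It was the sole member with both BAP1 KO libraries above both control libraries (0.16 ± 0.12, adjusted p = 0.383, not passing). RRN3, which bridges the polymerase to the promoter, was at 105 and 137 CPM for WT, 109 and 98.8 for MLL4 KO, 127 and 129 for control and 107 and 117 for BAP1 KO. Its WT and MLL4 KO libraries overlapped, and it passed in no comparison. By deposited RPKM, which allows levels to be compared between genes, RRN3, TCOF1, UBTF and POLR1C had means over the 8 libraries within 24.2 to 24.7, with an order that differed between groups: in WT, RRN3 (23.1 and 29.1 RPKM) was below TCOF1 (34.8 and 51.5 RPKM). Of 9 other polymerase I genes, 2 fell in MLL4 KO, POLR1F by 0.88 and POLR1G by 0.60 on the log2 scale; in BAP1 KO edgeR called none, with 3 at an unadjusted p under 0.05, where 35.9% of all genes had such a p (median of the 9, -0.29). In control against WT 4 of the 9 were lower and 1, TAF1D, was higher (median -0.31). Called shares of the 9 were 22.2% in MLL4 KO, 0% in BAP1 KO and 55.6% in control against WT. Of all genes 19.1%, 22.4% and 39.6% were called in these comparisons. The call of POLR1F was lost without MLL4 KO replicate 2, and that of POLR1G without either MLL4 KO library, WT replicate 2 or either control library. Among the 7 members the calls in MLL4 KO came to 0 without MLL4 KO replicate 2 or WT replicate 2, 1 without any 1 of the control and BAP1 KO libraries, and 6 without WT replicate 1. In BAP1 KO they came to 0 without any 1 of the control and BAP1 KO libraries, and 4 without either WT library.

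The small nucleolar particles guide the modification of ribosomal RNA: box C/D particles carry out methylation of the ribose and H/ACA particles turn uridine into pseudouridine. Of their 8 genes, 6 fell in MLL4 KO (75%, median -0.63) and 4 in BAP1 KO (50%, median -0.60). In control against WT 6 were lower (75%, median -0.69). Of all genes 19.1%, 22.4% and 39.6% were called in these comparisons. Both knockout libraries were below both unedited libraries for all 8 genes in both knockouts. That pattern was seen in 30.3% of all genes for MLL4 KO and 35.2% for BAP1 KO. NOP58, a core protein of the box C/D particle, lies at chr2:202265763-202303661 (hg38, the RefSeq span of the gene). It was at 156 and 189 CPM for WT, 94.6 and 73.2 for MLL4 KO, 126 and 124 for control and 88.0 and 101 for BAP1 KO. It fell by 51.4% in MLL4 KO (log2 -1.04 ± 0.16, adjusted p = 0.00802), and its value in BAP1 KO was -0.40 ± 0.15, adjusted p = 0.0938; the MLL4 KO and BAP1 KO libraries overlapped. Its partner NOP56 was at 343 and 415 CPM for WT, 244 and 215 for MLL4 KO, 201 and 201 for control and 158 and 175 for BAP1 KO. It fell in MLL4 KO (-0.73 ± 0.13, adjusted p = 0.0124), with -0.27 ± 0.13, adjusted p = 0.173 in BAP1 KO.

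The methyltransferase of the same particle, FBL, passed in BAP1 KO and not in MLL4 KO. It was at 262 and 318 CPM for WT, 253 and 238 for MLL4 KO, 158 and 161 for control and 95.1 and 113 for BAP1 KO. The MLL4 KO libraries lay just below those of WT (-0.24 ± 0.14, adjusted p = 0.227), and BAP1 KO libraries clearly below those of control (-0.62 ± 0.14, adjusted p = 0.0117). With a mean of 140.2 RPKM FBL was the most abundant gene of the group. DKC1, GAR1 and NHP2 form the core of the H/ACA particle. DKC1, the pseudouridine synthase, was at 154 and 193 CPM for WT, 124 and 116 for MLL4 KO, 143 and 142 for control and 85.6 and 97.1 for BAP1 KO. It fell in both knockouts (-0.53 ± 0.14, adjusted p = 0.0283 and -0.64 ± 0.14, adjusted p = 0.00966). NHP2 was at 124 and 140.3 CPM for WT, 109 and 90.1 for MLL4 KO, 77.2 and 79.2 for control and 50.3 and 51.9 for BAP1 KO. It fell in BAP1 KO (-0.61 ± 0.13, adjusted p = 0.00963), while MLL4 KO missed the threshold (-0.41 ± 0.13, adjusted p = 0.0503). GAR1 was at 34.3 and 51.6 CPM for WT, 25.5 and 21.5 for MLL4 KO, 29.4 and 26.7 for control and 15.1 and 20.4 for BAP1 KO. It fell in MLL4 KO (-0.87 ± 0.22, adjusted p = 0.0266) and missed the threshold in BAP1 KO (-0.66 ± 0.22, adjusted p = 0.0587).

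NOLC1, a chaperone of both particle types, was at 476 and 466 CPM for WT, 372 and 293 for MLL4 KO, 384 and 382 for control and 243 and 267 for BAP1 KO. It too fell in both (-0.50 ± 0.14, adjusted p = 0.0333 and -0.59 ± 0.14, adjusted p = 0.0143). RRP9, a protein of the U3 particle, was at 86.0 and 144 CPM for WT, 69.1 and 63.1 for MLL4 KO, 66.8 and 64.5 for control and 42.0 and 49.3 for BAP1 KO. It fell in MLL4 KO (-0.80 ± 0.21, adjusted p = 0.0334), with -0.52 ± 0.21, adjusted p = 0.113 in BAP1 KO. The difference between the knockout effects did not pass for either box C/D gene: it was -0.64 ± 0.22, adjusted p = 0.0756 for NOP58 and 0.38 ± 0.19, adjusted p = 0.205 for FBL. In MLL4 KO the calls dropped to 1 of 8 without MLL4 KO replicate 2, 2 without WT replicate 2, and 2 without either control library. In BAP1 KO they dropped to 0 of 8 without BAP1 KO replicate 1 or without either control library, with adjusted p up to 0.113 for FBL.

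The small subunit processome is a large particle that forms on the 5′ end of the precursor. Of its 10 members, 7 fell in MLL4 KO (70%, median -0.66) and 4 in BAP1 KO (40%, median -0.55). In control against WT 5 were lower (50%, median -0.45). Of all genes 19.1%, 22.4% and 39.6% were called in these comparisons. The 10 include the transcription-coupled UTP genes UTP4, UTP15, WDR43, WDR75 and HEATR1. The E-box CACGTG, the letters MYC and MAX are known to bind, was looked for in promoter windows of 300 bases (250 before to 50 after the start, RefSeq, GRCh38.p14). Its reverse complement is itself, so both strands were covered. The table held 35 of the 43 members (none for MYC, BOP1, NOLC1, NOP58, POLR1E, RRP12, RRS1 and TCOF1). The letters occurred in 10 of the 35 (28.6%), against 1252 of 12764 promoters of tested genes (9.81%) and 2548 of 35116 promoters in all (7.26%). The 10 were MRTO4, IMP4, FBL, NOP2, UTP4, PES1, UTP20, RRP9, WDR43 and NOP14, and IMP4 held a pair of matches. No binding of MYC was measured here, and a match is only a description.

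In 3 of the 10 a match lies wholly upstream of the start, and all 3 are processome genes. To show where it sits, 100 bases around it are printed for each, on the plus strand, 5′ to 3′, with the E-box in capitals. They are IMP4 at chr2:130342647-130342746, UTP4 at chr16:69132549-69132648 and UTP20 at chr12:101280005-101280104.
IMP4: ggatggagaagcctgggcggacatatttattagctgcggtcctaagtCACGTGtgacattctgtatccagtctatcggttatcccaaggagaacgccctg
UTP4: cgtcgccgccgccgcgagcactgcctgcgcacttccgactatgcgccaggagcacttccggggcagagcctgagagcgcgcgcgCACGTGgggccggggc
UTP20: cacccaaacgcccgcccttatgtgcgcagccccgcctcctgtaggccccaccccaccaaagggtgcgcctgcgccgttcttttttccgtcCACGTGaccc
Counted from the start, the E-box begins at position -203 in IMP4, -16 in UTP4 and -10 in UTP20. The stretch of IMP4 is the most distant part of its window, and those of UTP4 and UTP20 end at the base before the start. These 3 genes fell in MLL4 KO and did not pass in BAP1 KO. In edgeR's test the difference between the knockout effects passed for none of them (adjusted p = 0.213 for IMP4, 0.248 for UTP4, 0.0975 for UTP20). Of the other E-box members, MRTO4, NOP2 and PES1 fell in both knockouts. RRP9 and WDR43 were called in MLL4 KO only, and FBL and NOP14 in BAP1 KO only. The part of the E-box in these changes was not tested.

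IMP4, part of the MPP10 complex of the processome, was at 110.0 and 135 CPM for WT, 83.4 and 66.4 for MLL4 KO, 67.7 and 65.6 for control and 55.3 and 52.5 for BAP1 KO. Both knockouts lay below their unedited cells, with -0.71 ± 0.15, adjusted p = 0.017 in MLL4 KO and -0.31 ± 0.15, adjusted p = 0.171 in BAP1 KO. UTP4 was at 123 and 161 CPM for WT, 99.8 and 79.9 for MLL4 KO, 85.7 and 78.4 for control and 64.1 and 74.2 for BAP1 KO. The changes were -0.66 ± 0.16, adjusted p = 0.0267 and -0.25 ± 0.17, adjusted p = 0.319. UTP20, a large scaffold protein, was at 67.6 and 124 CPM for WT, 49.6 and 31.6 for MLL4 KO, 32.9 and 36.8 for control and 38.6 and 30.5 for BAP1 KO. WT replicate 2 was the highest library for UTP20 and WT replicate 1 the next, and its control and BAP1 KO libraries overlapped. It had the lowest log2 change of any member in MLL4 KO (-1.23 ± 0.31, adjusted p = 0.0328) and in control against WT (-1.45 ± 0.31, adjusted p = 0.00826), and none in BAP1 KO that could be told from 0 (-0.01 ± 0.31, adjusted p = 0.981).

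UTP15 was at 36.8 and 53.2 CPM for WT, 24.2 and 18.6 for MLL4 KO, 35.6 and 31.9 for control and 21.2 and 20.6 for BAP1 KO. Both knockouts lay clear of their unedited cells. It fell in both knockouts (-1.07 ± 0.20, adjusted p = 0.0121 and -0.69 ± 0.20, adjusted p = 0.0336). TSR1, a GTPase-like factor of small subunit maturation, was at 189 and 264 CPM for WT, 133 and 117 for MLL4 KO, 152 and 151 for control and 101 and 105 for BAP1 KO. It also fell in both (-0.85 ± 0.16, adjusted p = 0.0129 and -0.55 ± 0.16, adjusted p = 0.0348). RRP12, which acts in the export of pre-ribosomal particles, was at 94.8 and 151 CPM for WT, 90.5 and 89.8 for MLL4 KO, 149 and 143 for control and 63.6 and 81.0 for BAP1 KO. Its control libraries were nearly as high as WT replicate 2. It fell in BAP1 KO (-1.01 ± 0.20, adjusted p = 0.00854) and not in MLL4 KO by the test (-0.45 ± 0.20, adjusted p = 0.146), where both libraries lay narrowly below WT replicate 1. WDR75 was at 84.2 and 108 CPM for WT, 68.0 and 53.6 for MLL4 KO, 66.5 and 72.3 for control and 62.2 and 57.1 for BAP1 KO. It fell in MLL4 KO (-0.66 ± 0.16, adjusted p = 0.0254). WDR43 fell in MLL4 KO (-0.64 ± 0.19, adjusted p = 0.0445), NOP14 in BAP1 KO (-0.63 ± 0.20, adjusted p = 0.0495; the gene overlaps NOP14-AS1 and strand was not given), and HEATR1 passed nowhere, with both libraries of BAP1 KO below control (-0.54 ± 0.17, adjusted p = 0.0507).

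Of 42 other processome genes, 25 fell and none rose in MLL4 KO (59.5% called, median -0.62). In BAP1 KO 10 fell and none rose (23.8%, median -0.27). In control against WT 16 were lower and none higher (38.1%, median -0.39). Of all genes 19.1%, 22.4% and 39.6% were called in these comparisons, and 10.0%, 10.4% and 19.7% were called lower. ESF1, from 52.9 and 77.5 CPM in WT to 28.2 and 19.7, and MPHOSPH10, from 37.3 and 49.5 to 22.4 and 16.7, had the smallest p in MLL4 KO (log2 -1.44 ± 0.21 and -1.15 ± 0.18). In BAP1 KO these were NOL6, from 65.9 and 66.3 CPM in control to 35.5 and 29.6, and UTP25, from 46.4 and 42.5 to 23.7 and 30.5 (log2 -1.02 ± 0.20 and -0.71 ± 0.16). Of these 42, the number that fell in MLL4 KO was 2 without MLL4 KO replicate 2, 5 without WT replicate 2, 9 or 10 without a control library and 38 without WT replicate 1. ESF1 and MPHOSPH10 fell in each of these fits. In BAP1 KO the number was 0 without control replicate 2, 1 without control replicate 1 or BAP1 KO replicate 1, 3 without BAP1 KO replicate 2 and 16 without either WT library. NOL6 lost its call without BAP1 KO replicate 2 or control replicate 2, and UTP25 without BAP1 KO replicate 1 or either control library. In control against WT the calls among these 42 also moved with the library left out, as did those over all genes. Without WT replicate 2 they lay in both directions. Among the 10 members the calls in MLL4 KO came to 0 without MLL4 KO replicate 2, 2 without WT replicate 2 and 3 without either control library. In BAP1 KO they came to 0 without BAP1 KO replicate 1 or either control library and 1 without BAP1 KO replicate 2.

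The 12 genes of large subunit assembly held the most calls: 11 fell in MLL4 KO (91.7%, median -0.68) and 8 in BAP1 KO (66.7%, median -0.61). In control against WT 8 were lower (66.7%, median -0.56). Of all genes 19.1%, 22.4% and 39.6% were called in these comparisons. All 12 had both knockout libraries below both unedited libraries, in both knockouts. That pattern was seen in 30.3% of all genes for MLL4 KO and 35.2% for BAP1 KO. RRS1, an assembly factor encoded on chromosome 8, was at 68.8 and 92.6 CPM for WT, 38.5 and 34.7 for MLL4 KO, 53.4 and 53.4 for control and 28.7 and 28.1 for BAP1 KO. Every library of a knockout lay below every WT and control library. It fell by 54.6% in MLL4 KO (log2 -1.14 ± 0.15, adjusted p = 0.00581). In BAP1 KO it fell by 46.8% (log2 -0.91 ± 0.15, adjusted p = 0.00346). Its call in BAP1 KO passed in all 18 alternatives (highest adjusted p 0.0398), and its call in MLL4 KO in all but the fit of 4 libraries (0.0643).

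PES1, BOP1 and WDR12 form the PeBoW complex, which is needed for maturation of the large subunit RNA, and each fell in both knockouts. PES1 was at 208 and 313 CPM for WT, 170.2 and 132 for MLL4 KO, 146 and 139 for control and 87.4 and 96.1 for BAP1 KO. BOP1, which with PES1 had the highest mean of the 12 (61.7 and 56.2 RPKM), was at 284 and 281 CPM for WT, 222 and 179 for MLL4 KO, 167 and 181 for control and 93.1 and 110.0 for BAP1 KO. Like MYC it was level between the WT libraries. WDR12 was at 75.7 and 92.4 CPM for WT, 60.5 and 51.2 for MLL4 KO, 63.9 and 66.7 for control and 41.0 and 42.1 for BAP1 KO. In MLL4 KO the changes were -0.78 ± 0.19, adjusted p = 0.0267 for PES1, -0.50 ± 0.14, adjusted p = 0.0372 for BOP1 and -0.59 ± 0.14, adjusted p = 0.0226 for WDR12, and in BAP1 KO they were -0.63 ± 0.19, adjusted p = 0.044, -0.77 ± 0.14, adjusted p = 0.00481 and -0.65 ± 0.14, adjusted p = 0.00996.

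MRTO4, which holds the place of a stalk protein on the pre-ribosome, was at 96.0 and 154 CPM for WT, 60.6 and 48.4 for MLL4 KO, 54.0 and 53.0 for control and 27.3 and 32.9 for BAP1 KO. It fell by 56.3% in MLL4 KO (log2 -1.20 ± 0.22, adjusted p = 0.0126). In BAP1 KO it fell by 43.7% (-0.83 ± 0.22, adjusted p = 0.0268). It was also lower in control than in WT (-57.2%, -1.22 ± 0.22, adjusted p = 0.00247), and the control and MLL4 KO libraries overlapped. GRWD1, a histone-binding protein also found on pre-ribosomes, was at 103 and 150.1 CPM for WT, 73.7 and 57.4 for MLL4 KO, 50.1 and 49.5 for control and 45.2 and 46.7 for BAP1 KO. Its BAP1 KO libraries lay just below those of control. It fell in MLL4 KO (-0.95 ± 0.18, adjusted p = 0.0142), was lower in control than in WT (-1.35 ± 0.19, adjusted p = 0.000658) and did not pass in BAP1 KO (-0.11 ± 0.19, adjusted p = 0.698).

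PPAN, an assembly factor whose locus also makes a PPAN-P2RY11 readthrough that shares its reads, was at 82.6 and 101 CPM for WT, 58.3 and 56.5 for MLL4 KO, 66.8 and 66.5 for control and 44.2 and 44.8 for BAP1 KO. It fell in both knockouts (-0.68 ± 0.13, adjusted p = 0.0127 and -0.58 ± 0.13, adjusted p = 0.011). NOP2, a methyltransferase of large subunit RNA, was at 123 and 164 CPM for WT, 90.4 and 91.0 for MLL4 KO, 118 and 114 for control and 75.2 and 84.9 for BAP1 KO. The fall passed in both (-0.66 ± 0.15, adjusted p = 0.0198 and -0.53 ± 0.15, adjusted p = 0.03). BRIX1, an RNA-binding assembly factor, was at 66.1 and 108 CPM for WT, 47.6 and 38.4 for MLL4 KO, 60.0 and 60.7 for control and 39.3 and 47.3 for BAP1 KO. It passed in MLL4 KO (-1.02 ± 0.22, adjusted p = 0.0197) and not in BAP1 KO (-0.48 ± 0.22, adjusted p = 0.154). WDR74 was at 75.0 and 93.5 CPM for WT, 61.8 and 54.8 for MLL4 KO, 70.2 and 65.4 for control and 33.2 and 46.6 for BAP1 KO. It passed in BAP1 KO (-0.76 ± 0.18, adjusted p = 0.0147) and not in MLL4 KO (-0.53 ± 0.17, adjusted p = 0.0607). NIP7 and NOP16 fell in MLL4 KO (-0.68 ± 0.18, adjusted p = 0.034 and -0.57 ± 0.16, adjusted p = 0.04).

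Of 50 other large subunit assembly genes, 27 fell and 1 rose in MLL4 KO (56% called, median -0.53). In BAP1 KO 18 fell and none rose (36%, median -0.39). In control against WT 21 were lower and 3 higher (48%, median -0.32). Of all genes 19.1%, 22.4% and 39.6% were called in these comparisons. The rise and falls named next are against the matching unedited cells. The gene that rose was NOP53, from 238 and 199 CPM in WT to 319 and 368 (log2 0.65 ± 0.14, adjusted p = 0.018). NOP53 was also higher in control than in WT (0.69 ± 0.14, adjusted p = 0.0042), as was RSL24D1 (0.80 ± 0.17, adjusted p = 0.00507). FTSJ3 and DDX54 fell most clearly in MLL4 KO (log2 -1.02 ± 0.17 and -0.81 ± 0.14), and MYBBP1A and NOC3L in BAP1 KO (-1.06 ± 0.17 and -0.81 ± 0.17). Of these 50, the number that fell in MLL4 KO was 0 without MLL4 KO replicate 2, 8 without WT replicate 2, and 11 and 13 without control replicates 1 and 2. FTSJ3 and DDX54 lost their call without MLL4 KO replicate 2, and NOP53 without that library, WT replicate 2 or control replicate 2. In BAP1 KO it was 1 without BAP1 KO replicate 1 or either control library and 7 without BAP1 KO replicate 2. MYBBP1A kept its call in each of these fits, and NOC3L lost it without BAP1 KO replicate 1 or either control library. In the 12 members the calls in MLL4 KO came to 1 without MLL4 KO replicate 2, 3 without WT replicate 2 and 5 without either control library. In BAP1 KO they came to 1 without BAP1 KO replicate 1 or control replicate 2, 2 without control replicate 1 and 3 without BAP1 KO replicate 2.

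Of the 5 multifunctional nucleolar proteins, 4 fell in MLL4 KO (80%, median -0.79) and 3 in BAP1 KO (60%, median -0.82). In control against WT 3 were lower (60%, median -0.78). Of all genes 19.1%, 22.4% and 39.6% were called in these comparisons. NCL, nucleolin, an RNA-binding protein of the nucleolus, lies at chr2:231453531-231464484. It was at 1503 and 2051 CPM for WT, 1107 and 891 for MLL4 KO, 918 and 903 for control and 758 and 842 for BAP1 KO. It fell by 43.8% in MLL4 KO (-0.83 ± 0.17, adjusted p = 0.0167) and was lower in control than in WT (-48.8%, -0.96 ± 0.17, adjusted p = 0.00226); the value in BAP1 KO was -0.19 ± 0.17, adjusted p = 0.471. NPM1, nucleophosmin, was the most abundant member of all 43 with a mean of 704 RPKM. It was at 1439.5 and 1933 CPM for WT, 1670.1 and 869 for MLL4 KO, 925 and 944 for control and 746 and 888 for BAP1 KO. MLL4 KO replicate 1 lay between the WT libraries and replicate 2 far below them, and NPM1 passed in neither knockout (-0.41 ± 0.28, adjusted p = 0.328 and -0.19 ± 0.28, adjusted p = 0.666). The annotation names 50 pseudogenes of NPM1, and no source used here says how reads shared with them were counted.

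DDX21, an RNA helicase, was at 339.7 and 520.4 CPM for WT, 264 and 234 for MLL4 KO, 399 and 402 for control and 178 and 224 for BAP1 KO. GNL3, nucleostemin, was at 194 and 259.5 CPM for WT, 154 and 115 for MLL4 KO, 197 and 202 for control and 97.7 and 119.9 for BAP1 KO. For both genes the control libraries lay between the WT libraries, and BAP1 KO lay below all unedited libraries. They fell in MLL4 KO by 0.79 ± 0.20, adjusted p = 0.0275 and 0.76 ± 0.18, adjusted p = 0.0256, and in BAP1 KO by 1.00 ± 0.20, adjusted p = 0.00742 and 0.87 ± 0.19, adjusted p = 0.00981. LYAR, a nucleolar regulator of cell growth, was at 75.7 and 117 CPM for WT, 52.3 and 40.2 for MLL4 KO, 56.8 and 55.9 for control and 27.4 and 36.4 for BAP1 KO. It was lower in all 3 comparisons (-1.06 ± 0.23, adjusted p = 0.0192, -0.82 ± 0.23, adjusted p = 0.0326 and -0.78 ± 0.22, adjusted p = 0.0237). The calls in MLL4 KO came to 0 of 5 without MLL4 KO replicate 2 or WT replicate 2 and 2 without either control library. In BAP1 KO they came to 0 without BAP1 KO replicate 1 or control replicate 2, and 1 without control replicate 1.

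The comparisons of MLL4 KO with WT and of BAP1 KO with control share no library, although they share the fit. Members called lower in both numbered 16, which is 50% of the 32 called in MLL4 KO and 76.2% of the 21 called in BAP1 KO; of all tested genes 301 (1.79%) were called lower in both. The 16 were MYC, NOP2, NOLC1, DKC1, RRS1, WDR12, BOP1, PES1, PPAN, GNL3, MRTO4, UTP15, POLR1B, LYAR, DDX21 and TSR1. Another 16 were called in MLL4 KO only, 5 in BAP1 KO only (FBL, NOP14, NHP2, RRP12 and WDR74) and 6 in neither (NPM1, POLR1A, POLR1E, UBTF, RRN3 and HEATR1). Of these, 9 were also lower in control than in WT: MYC, RRS1, BOP1, PES1, PPAN, MRTO4, POLR1B, LYAR and TSR1. RRN3 and HEATR1 were called in none of the 3 comparisons.

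A call in 1 knockout and not in the other does not show that the effects differed, and that was tested directly. For the effect of MLL4 KO minus that of BAP1 KO, edgeR called 0 of 43 members, where 16.1% of all genes were called (7.75% higher and 8.32% lower). At an unadjusted p under 0.05 there were 7 (GRWD1, MYC, NOP58, NCL, UTP20, TCOF1 and NOP56), where 32.7% of all genes had such a p, and DESeq2 called 3 of the 43 and 3265 of all genes. The difference was 0.73 for MYC and negative for the other 6, from -1.22 for UTP20 through -0.83 for GRWD1 to -0.45 for NOP56. The median over the 43 was -0.15, with 31 negative and 12 positive. It was 0.12 without WT replicate 2 and -0.41 without WT replicate 1, so the sign of the median rested on WT replicate 2.

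**Figure D4:**
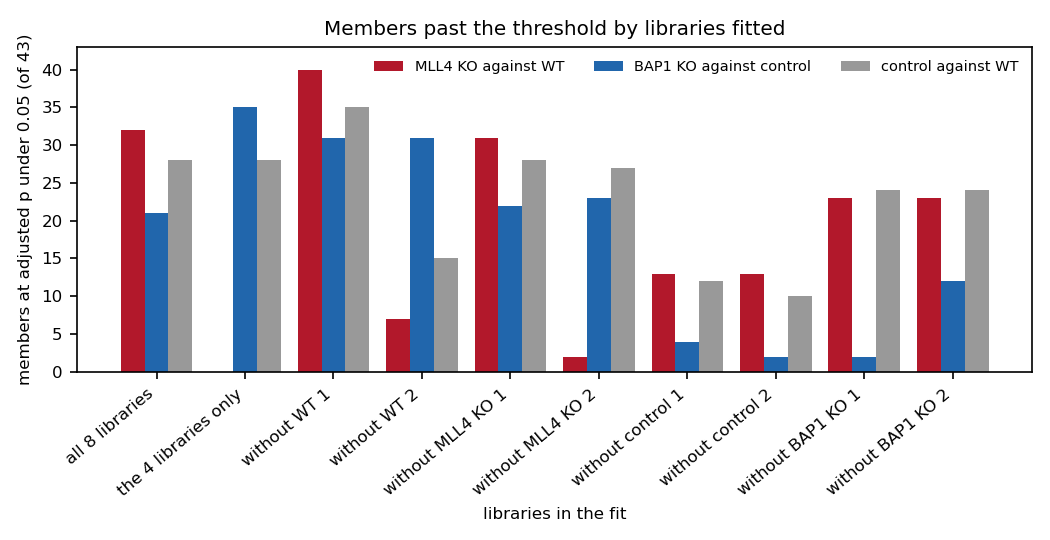
Number of the 43 members at adjusted p under 0.05 (bars, axis from 0) in each comparison (colours) when all 8 libraries, the 4 libraries of the comparison alone, or all but 1 library were fitted. MLL4 KO against WT ranged from 0 with its own 4 libraries to 40 without WT replicate 1.

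The number of calls depended on which libraries were fitted, far more than the sign of the changes did. In MLL4 KO against WT it was 2 without MLL4 KO replicate 2, 7 without WT replicate 2, 13 without control replicate 1 or control replicate 2, and 0 when its own 4 libraries were fitted alone, where 60 of all genes were called. Over all genes the calls of the same comparison were 3219 with all 8 libraries, 530 without MLL4 KO replicate 2, 663 without WT replicate 2, and 1082 and 1087 without control replicates 1 and 2. All 43 members still had a negative log2 change in each of these fits but that without MLL4 KO replicate 2, where 42 had. In BAP1 KO against control it was 2 without BAP1 KO replicate 1 or control replicate 2, 4 without control replicate 1, 12 without BAP1 KO replicate 2 and 35 with its own 4 libraries, with 41 or 42 negative changes throughout. The calls over all genes moved with these fits, from 3778 with all 8 libraries to 1075 to 2383 in those without a BAP1 KO or control library and 6660 with the 4. In control against WT the members' median log2 change was -0.33 without WT replicate 2, against -0.56 with all 8 libraries. In that fit 38 changes were negative and 5 positive. The median was -0.53 without control replicate 1 and -0.55 without control replicate 2. Fewer members, and fewer of all genes, were called in each of these fits than with all 8 libraries. With 1 library left out, 38 to 43 changes were negative. By role, the calls in control against WT without control replicate 2 came to 2 of 7 polymerase I genes, 3 of 8 snoRNP genes, 1 of 10 processome genes, 3 of 12 large subunit genes and 1 of 5 nucleolar genes. A lone remaining library of a group is assumed in these fits to vary as the other groups do.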

How the data were processed

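The members, roles and gene lists were chosen with earlier results of these data known. Per the file headers, each deposited table gives for every RefSeq transcript a read count and an RPKM made by the authors. The submitters' processing notes name hg38, bcl2fastq, Bowtie2, STAR and SICER 1.1 with no roles; no source used here names the counter, strand setting or annotation version. Rows were mapped to symbols with the RefSeq gene table, and the 605 of 88819 rows without a symbol (0.23 to 0.252% of counts) were left out. Transcript rows of a gene share reads, so 1 row per gene was used.

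Deposited counts of the 8 libraries were fitted together with edgeR 4.0.16 in R 4.3.3 (TMM, filterByExpr, quasi-likelihood with robust dispersion, a mean per group, two-sided), and p-values were adjusted by Benjamini-Hochberg over 16831 genes with a threshold of 0.05. CPM are TMM-scaled; plots add 1 before log2. Errors are SE of the log2 change or, where said, SD. The scripts were tested on simulated data. Members with values in every library were MYC, the up to 20 smallest adjusted p per comparison, and the highest mean RPKM per role; for other lists, up to 2 per direction. Promoters with the E-box after or across the start were not printed, a departure from the rule of printing the smallest p. Deviations of same-numbered libraries in different groups correlated with r from -0.027 to 0.055 over the tested genes. The exception was WT with MLL4 KO, at -0.189, where they ran in opposite directions. The numbers were not used as pairs in the main fit. Other settings tried were DESeq2 1.42.0, scaling by RLE or upper quartile, 2 other filters, the longest row per gene, a replicate block, the 4 libraries of a comparison alone and each library left out. A crossed block and the legacy dispersion were chosen once the data had been seen. The chromatin samples were not analysed here.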

Additional observations from a re-analysis of the deposited data

How the results depend on the processing

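Of 43 members, 32 passed in MLL4 KO against WT, 21 in BAP1 KO against control, 28 in control against WT and 0 in the difference of the knockout effects. Under RLE or upper-quartile scaling, DESeq2, no filter, a filter of 1 CPM in 4 libraries, the longest row per gene or the legacy dispersion, these counts ran from 27 to 36, 20 to 26 and 24 to 29. The replicate block gave 26, 17, 23 and 0; the crossed block gave 35, 26, 31 and 3. Fitting only the 4 libraries of a comparison gave 0 members for MLL4 KO and 35 for BAP1 KO. In that fit 0 genes of the other ribosome biogenesis, MYC network and MYC target lists passed in MLL4 KO, and 23 other processome and 36 other large subunit genes fell in BAP1 KO. Leaving out each library in turn gave 2 to 40 for MLL4 KO, 2 to 31 for BAP1 KO, 10 to 35 for control and 0 to 10 for the difference, which was 1 under upper-quartile scaling and 3 with DESeq2. The members' median difference of effects was -0.41 to 0.12 when 1 library was left out, with 0.12 without WT replicate 2, against -0.15; it was -0.04 under upper-quartile scaling, with 23 negative and 20 positive members against 31 and 12. The medians of the 3 comparisons kept their negative sign in all 18 alternatives. Of the named members, 2 of 20 kept their call in every alternative in BAP1 KO (MYC and RRS1), 9 of 21 in control against WT and 0 of 21 in MLL4 KO, and no member's direction reversed among them. Why the calls differ between these settings was not tested. Each group held 2 libraries, and each member had at least 473 reads in every library.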

Other observations

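MYC targets outside ribosome biogenesis are a list of metabolic, chaperone and nuclear transport genes chosen with earlier results of these data known. Of 30 tested, 15 fell and none rose in MLL4 KO (median log2 change -0.50), 6 fell and none rose in BAP1 KO (median -0.23), and 19 were lower and 1 higher in control than in WT (median -0.85). The shares called were 50% in MLL4 KO, 20% in BAP1 KO and 66.7% in control against WT, beside 19.1%, 22.4% and 39.6% of all genes, and the change was positive for 4, 8 and 5 of the 30. In MLL4 KO, PA2G4, a growth-regulating RNA-binding protein, went from 436 and 601 CPM in WT to 321 and 259 (-0.84 ± 0.17, edgeR adjusted p = 0.0161), and LDHA, lactate dehydrogenase, from 791 and 1002 to 585 and 489 (-0.74 ± 0.15, adjusted p = 0.0159). In BAP1 KO, NAMPT, which makes a precursor of NAD, went from 134 and 132 CPM in control to 74.2 and 86.4 (-0.72 ± 0.16, adjusted p = 0.0103), and ATIC, a purine synthesis enzyme, from 96.6 and 100.3 to 59.2 and 65.0 (-0.66 ± 0.15, adjusted p = 0.0121). RANBP1, a cofactor of nuclear transport, was at 196 and 286 CPM in WT and 82.1 and 84.3 in control (-1.53 ± 0.18, adjusted p = 0.000336). MTHFD2, a mitochondrial enzyme of one-carbon metabolism, was the gene that was higher in control, at 639 and 628 CPM against 289 and 379.8 in WT (0.92 ± 0.23, adjusted p = 0.0134). These counts too rested on single libraries. In MLL4 KO the number that fell was 0 without WT replicate 2, 1 without MLL4 KO replicate 2, 4 without either control library and 7 without either BAP1 KO library, and PA2G4 and LDHA lost their calls in the first pair of these fits. In BAP1 KO 0 passed without BAP1 KO replicate 1 or either control library, NAMPT and ATIC included, and 9 fell and 1 rose without either WT library. In control against WT 12 were lower without control replicate 2, 3 were higher without WT replicate 2, RANBP1 kept its call when any 1 library was left out, and MTHFD2 lost it without WT replicate 1 or either control library.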
